A study of Mus musculus with 8 samples.

Results

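The plasminogen activator system was followed in 4T1 cells, a metastatic mouse mammary carcinoma line, after acetate. It was taken as 7 genes chosen by name, with earlier results of these data known: Plau, Plat, Plaur, Serpine2, Serpinb2, Anxa2 and S100a10. All 7 were among the 20189 genes of the deposited expression table. The wild-type cells were grown in culture medium with serum and received 5 mM acetate or water as vehicle for 48 hours. Poly-A RNA was sequenced from 4 acetate and 4 vehicle libraries. Acetate and vehicle libraries with the same number were compared as a pair, 4 pairs in all, and the study treats each number as an independent experiment. Both groups come from 1 cell line in culture, so stroma and leukocytes of a tumour are not part of the model.

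Plasminogen is an inactive protease precursor that 2 activators cut into plasmin, the urokinase type (Plau) and the tissue type (Plat). Plasmin dissolves fibrin, cuts matrix proteins and activates other proteases. The urokinase receptor (Plaur) holds urokinase at the cell surface, serpins such as Serpine2 and Serpinb2 block the activators, and a complex of annexin A2 (Anxa2) with S100a10 binds plasminogen and tissue-type activator there. In breast cancer the system is known for its part in invasion.

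Acetate moved members of the system in different directions. Plat rose 1.83-fold and its inhibitor Serpine2 1.17-fold, while Plaur fell to 0.887 of its vehicle level. Plau, Serpinb2, Anxa2 and S100a10 did not pass the test. These calls come from limma on log2(value + 1) with the replicate number as a block, with p-values adjusted over all 20189 genes and a threshold of 0.05. With 2 members higher and 1 lower, 3 of 7 were called, beside 8.64% of all genes tested (5.99% higher and 2.65% lower). Calls were more frequent among well expressed genes: of the 10094 with a mean above the table's median, 992 were called higher and 522 lower. Without the block no member and 0% of all genes were called, although 353 genes had an unadjusted p under 0.05, and the members' adjusted p was 1.00. edgeR without the block also called 0 genes. In none of the 7 genes did the acetate and vehicle groups stand apart without overlap, which 1.65% of all genes did. The members called thus changed within pairs, by less than the spread between replicates.

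Depth was 19.9 to 29.3 M reads per library (M, mega), and each value is a normalised read number, scaled so that a library sums to 20000000. Both libraries of replicate 1 stood apart from the other 6 in most members. Epithelial markers were present (8 of 8 in the table, summing to 47146 to 68701 in vehicle and 50859 to 71139 in acetate). Of these 8, 3 were called higher in acetate and none lower, with a median log2 change of 0.11. Ptprc, the defining leukocyte marker, averaged 1.90 in vehicle and 2.62 in acetate. Of the 7 leukocyte markers 3 were in the table, and Cd68 made up most of their sum (93.1 to 201 in vehicle, 100 to 212 in acetate). The 4 endothelial markers in the table of 5 summed to 2.44 to 8.19 in vehicle and 3.77 to 10.5 in acetate. Of 5 fibroblast markers 3 were in the table, with a sum of 229 to 1523 in vehicle and 394 to 1998 in acetate, nearly all of it Pdgfra. Pdgfra rose by 0.52 on the log2 scale (adjusted p = 3.72e-04), Pdgfrb by 1.40 (0.0119) and the macrophage receptor gene Csf1r by 1.08 (0.00774), from 13.1 to 28.4 units. Pdgfrb did not pass without replicate 2 or 3, nor Csf1r without replicate 4. Their part in the changes described here was not tested. In bulk RNA, fewer cells of a type and less RNA per cell cannot be told apart.

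RefSeq windows upstream of the transcription start were at hand for 4 of the 7 members, Plaur, Serpine2, Serpinb2 and Anxa2, and these are shown. Each is given 5′ to 3′ on build GRCm38.p6 from 250 bases before the RefSeq start and stops where it would enter an annotated exon. The Serpine2 window lies inside the annotated gene, downstream of its outermost start. Capitals mark 3 motifs, searched on both strands. These are the AP-1 letters TGANTCA, the TATA box letters TATAAA and the GC box letters GGGCGG.
Plaur, chr7:24462233-24462482, plus strand: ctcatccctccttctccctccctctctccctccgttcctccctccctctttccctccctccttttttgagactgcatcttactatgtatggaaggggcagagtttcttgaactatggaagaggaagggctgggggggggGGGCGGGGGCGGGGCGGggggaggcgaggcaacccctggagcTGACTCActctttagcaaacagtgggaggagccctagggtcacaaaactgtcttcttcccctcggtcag
Serpine2, chr1:79858697-79858915, minus strand: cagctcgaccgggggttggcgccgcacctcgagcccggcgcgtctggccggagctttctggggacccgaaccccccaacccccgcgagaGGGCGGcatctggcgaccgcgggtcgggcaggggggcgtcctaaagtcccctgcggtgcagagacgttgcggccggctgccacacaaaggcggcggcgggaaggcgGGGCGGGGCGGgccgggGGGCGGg
Serpinb2, chr1:107511173-107511422, plus strand: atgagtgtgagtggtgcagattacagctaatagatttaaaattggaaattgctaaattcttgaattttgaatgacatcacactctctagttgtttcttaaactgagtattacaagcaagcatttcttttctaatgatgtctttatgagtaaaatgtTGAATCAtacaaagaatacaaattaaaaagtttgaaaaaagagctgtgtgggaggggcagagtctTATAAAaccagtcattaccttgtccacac
Anxa2, chr9:69453433-69453619, plus strand: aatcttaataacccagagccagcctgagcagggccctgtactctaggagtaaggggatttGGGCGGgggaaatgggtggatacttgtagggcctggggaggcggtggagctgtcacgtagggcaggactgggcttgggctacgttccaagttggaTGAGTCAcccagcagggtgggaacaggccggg

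The AP-1 letters were in 3 of the 4 windows, against 6.75% of 32851 mouse windows of the same length. In Plaur they lay 69 to 63 bases before the start, in Serpinb2 94 to 88 and in Anxa2 95 to 89. Serpine2, whose window had none, held 6 GC boxes, of which 2 pairs touch or overlap and the last 2 lie past the printed stretch. Plaur held 3 GC boxes in 1 run and Anxa2 3, of which 2 lie past the printed stretch, and Serpinb2 had none. GC boxes were in 32.7% of all windows. A TATA box was in Serpinb2, 29 to 24 bases before the start, and in the unprinted end of the Anxa2 window, against 12.4% of all windows. The letters TGACGTCA (CRE, 1.55% of all windows) and CCGGAA (Ets, 12.03%) were in none of the 4. Such matches describe these letters only. Another Serpinb2 window, with a start farther downstream, holds the same AP-1 and TATA letters.

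Levels can be set side by side only per length of exon. Per kb, S100a10 (5645 ± 1834 normalised reads, SD, n = 4) and Anxa2 (5344 ± 176) were highest in vehicle cells and did not differ beyond their spread. Plau followed at 2428 ± 452, then Plaur at 895 ± 271 and Serpine2 at 535 ± 241, with Plaur above Serpine2 in each of the 4 libraries. Plat at 54.5 ± 36.3 and Serpinb2 at 32.6 ± 51.5 were lowest and overlapped. In acetate, S100a10 was at 5767 ± 1290 and Anxa2 at 5409 ± 484, followed by Plau at 2416 ± 456, Plaur at 786 ± 194, Serpine2 at 621 ± 273, Plat at 99.5 ± 65.8 and Serpinb2 at 23.6 ± 38.9. The order of the means was the same, but Serpine2 lay above Plaur in acetate replicates 2 and 4.

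**Figure D1:**
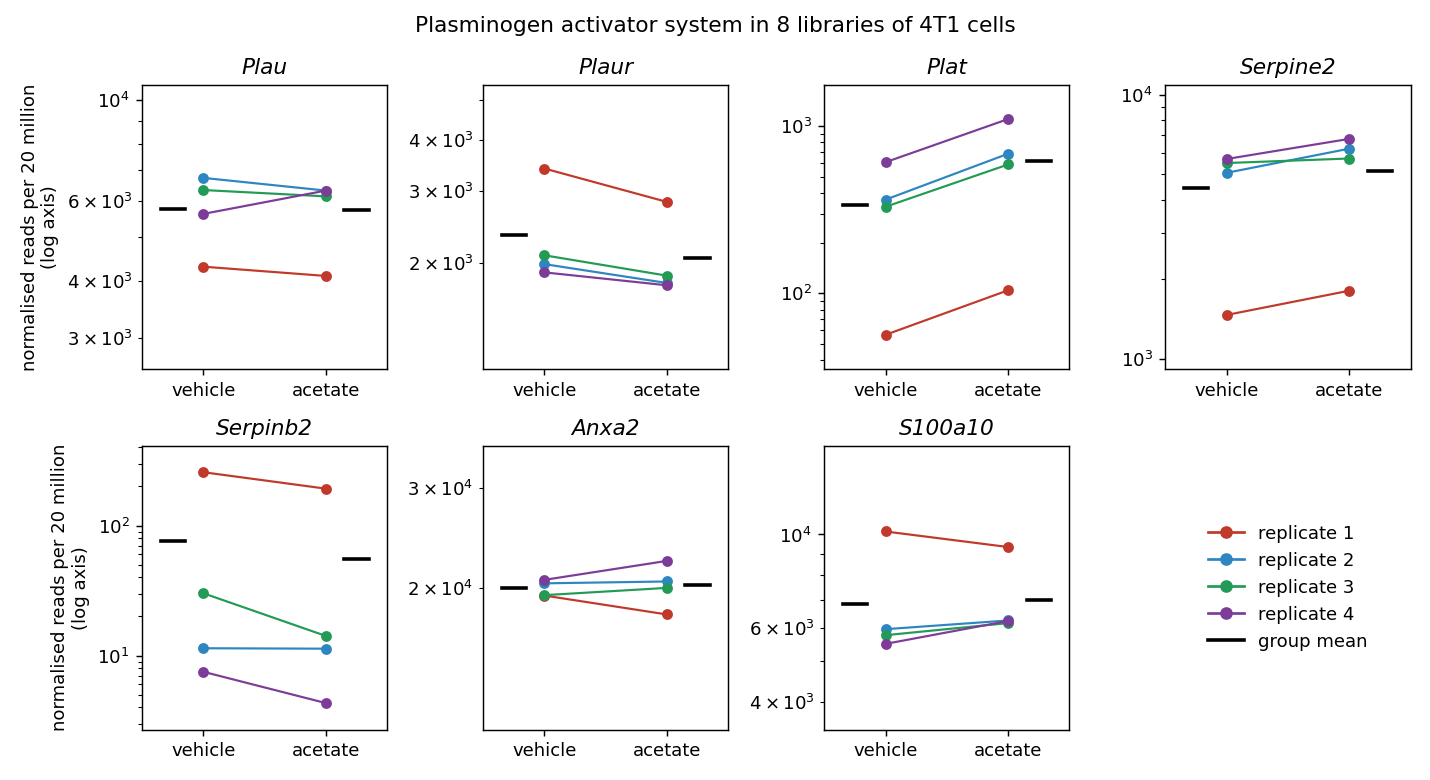
Normalised reads per 20000000 (log axis) of the 7 genes in vehicle and acetate, one line per same-numbered pair and black bars for group means (n = 4). Plat rises along each of its 4 lines while replicate 1 stays far below the others, and Plaur falls along each line.

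Of the activators, Plat (ENSMUSG00000031538, 8:22757727-22782844 on GRCm38) showed the most even change of the 7. It read 56.5, 364, 330 and 609 units in vehicle replicates 1 to 4, and 104, 685, 591 and 1105 in the acetate libraries of the same numbers. Each acetate library was 1.79 to 1.88 times its partner, although the vehicle level ran from 56.5 in replicate 1 to 609 in replicate 4. The fitted rise was 0.87 ± 0.05 (SE) on the log2 scale, or 1.83-fold (95% interval 1.69 to 1.97, adjusted p = 9.24e-06), in 4 of 4 pairs. It ranked 4 of 20189 by p-value, and 9 by size of rise among the 10094 genes with a mean above the median of the table. Every blocked alternative called it, with changes of 0.84 to 0.88. Without replicate 1 it was 0.87 (adjusted p = 2.13e-05). Plat rested on 74 to 1537 reads per library.

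Plau (ENSMUSG00000021822, 14:20836660-20843385), the urokinase-type activator, stood far higher per kb and did not pass. Vehicle replicates 1 to 4 read 4300, 6736, 6335 and 5615 units, and acetate 4103, 6317, 6135 and 6319. The pair differences were -4.58, -6.22 and -3.16% for replicates 1 to 3 and 12.5% for replicate 4. The fitted change was -0.01 ± 0.04 (adjusted p = 0.936, 95% interval of the fold 0.936 to 1.06). Per kb, Plat came to 0.0216 ± 0.0149 of Plau in vehicle and 0.0384 ± 0.0232 in acetate, higher in 4 of 4 pairs.

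Plaur (ENSMUSG00000046223, 7:24462484-24475968), the urokinase receptor, fell in 4 of 4 pairs. The vehicle libraries read 3399, 1986, 2087 and 1896 units and the acetate libraries 2817, 1786, 1861 and 1763. Replicate 1 was the highest in both groups, and the pair differences were -17.1, -10.1, -10.8 and -7.01% for replicates 1 to 4. The fitted change was -0.17 ± 0.03 (fold 0.887, 95% interval 0.843 to 0.933, adjusted p = 0.00856). It was -0.14 (adjusted p = 0.0270) without replicate 1, and no longer passed without replicate 2 (adjusted p = 0.0514) or replicate 3 (0.0779). The Plau to Plaur ratio per kb went from 2.95 ± 1.05 to 3.28 ± 1.12, and was higher in 4 of 4 pairs.

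Serpine2 (ENSMUSG00000026249, 1:79794197-79861180), or protease nexin-1, a serpin that blocks thrombin and both activators, rose by 0.23 ± 0.04 (fold 1.17, 95% interval 1.10 to 1.24, adjusted p = 0.00482). The vehicle libraries read 1466, 5057, 5507 and 5704 units and the acetate libraries 1811, 6240, 5728 and 6796. All 4 pairs were higher, by 23.5, 23.4, 4.02 and 19.1%. Replicate 1 was lowest in both groups. The call was lost without replicate 2 (adjusted p = 0.0512) or replicate 4 (0.0738). Plat to Serpine2 per kb went from 0.0920 ± 0.0380 to 0.144 ± 0.0570 (higher in 4 of 4 pairs), and Plau to Serpine2 from 5.60 ± 3.15 to 4.62 ± 2.22 (lower in 4 of 4). Transcripts of Serpine2 match those of Dynlt1c and Dynlt1f over 270 bases on the opposite strand. They also match Dlc1 over 103 bases and Trappc4 over 102, so reads could be shared, which was not tested.

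Serpinb2 (ENSMUSG00000062345, 1:107511423-107535478), which encodes the intracellular and secreted inhibitor of urokinase, varied most between replicates. It read 257, 11.4, 30.2 and 7.51 units in vehicle, and 192, 11.3, 14.2 and 4.31 in acetate. Replicate 1 lay 4.12 log2 units above the other vehicle libraries and 4.28 above the other acetate libraries. The acetate value was below its partner in each pair, with differences from -0.756 to -53.1%, but replicate 2 had 14 reads in both libraries and differs only by scaling. The fitted value was -0.54 ± 0.21 and did not pass (adjusted p = 0.154), while edgeR with the block on recovered reads gave -0.49 (adjusted p = 0.0263). Counts were 6 to 337 reads per library. Reads could be shared with the overlapping Serpinb10, whose transcripts match over 238 bases.

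The 2 partners of the plasminogen-binding complex were abundant and did not pass. Anxa2 (ENSMUSG00000032231, 9:69453620-69491795) read 19363, 20353, 19396 and 20646 units in vehicle and 17924, 20509, 19979 and 22308 in acetate. The fitted change was 0.01 ± 0.03 (adjusted p = 0.873), a value whose sign turned with median-of-ratios scaling, DESeq2 and edgeR (-0.0057, -0.0056 and -0.0042). An antisense gene, Gm16144, overlaps Anxa2, and use of strand in the counting is not given in the sources used here. S100a10 (ENSMUSG00000041959, 3:93555080-93564643) read 10165, 5952, 5759 and 5492 units in vehicle and 9334, 6243, 6154 and 6227 in acetate. The difference was -8.17% in replicate 1, and acetate was above vehicle in the other 3 pairs by 4.89 to 13.4%. The fitted change was 0.06 ± 0.04 (adjusted p = 0.471), and without replicate 1 it was 0.12 and passed (adjusted p = 0.0450). The ratio of S100a10 to Anxa2 per kb was 1.06 ± 0.372 in vehicle and 1.09 ± 0.346 in acetate.

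**Figure D2:**
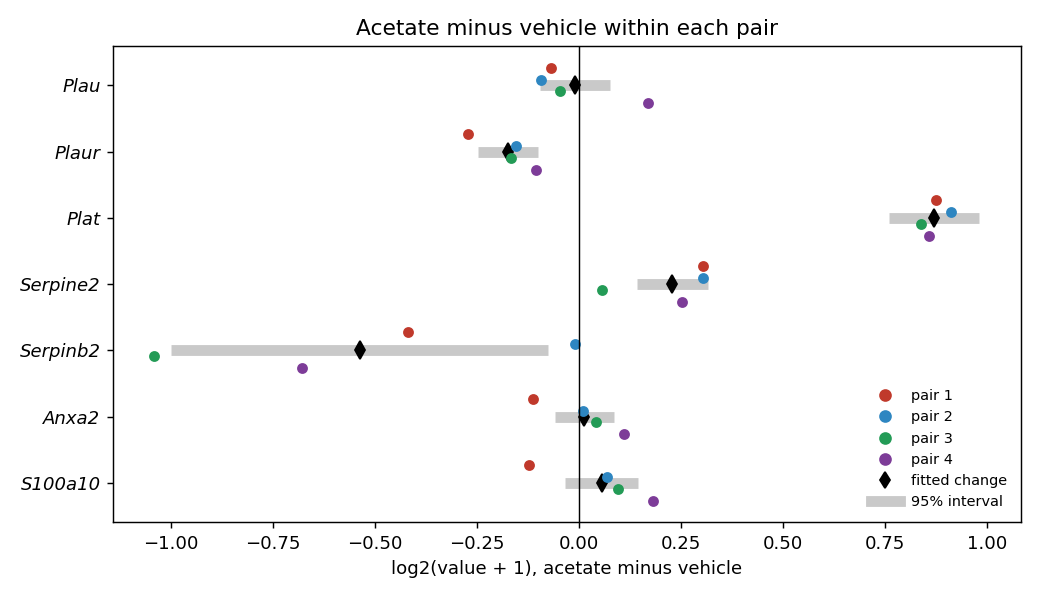
Difference of log2(value + 1), acetate minus vehicle, in each of the 4 pairs (coloured points), with the fitted change (diamond) and its 95% interval (grey bar). The 4 Plat points lie between 0.84 and 0.91, whereas the 4 Serpinb2 points spread from about -1.04 to -0.01.

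Replicate number held most of the spread over the 8 libraries in each member. It took 95.8% of the sum of squares of log2 values for Plau, 91.9% for Plaur, 89.7% for Plat, 97.6% for Serpine2, 97.2% for Serpinb2, 76.9% for Anxa2 and 96.1% for S100a10. The median over genes with a mean above the table's median was 92.4%. Treatment held 10.3% for Plat, with a remainder of 0.00952%, and 7.23% for Plaur. The median treatment share of those genes was 2.63%. In vehicle, replicate 1 minus the others came to -2.87 log2 units for Plat, -1.88 for Serpine2, -0.53 for Plau, 0.77 for Plaur and 0.83 for S100a10, while Anxa2 was at -0.06. Plat and Serpine2 were thus low, and Plaur, Serpinb2 and S100a10 high, in the same replicate.

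**Figure D3:**
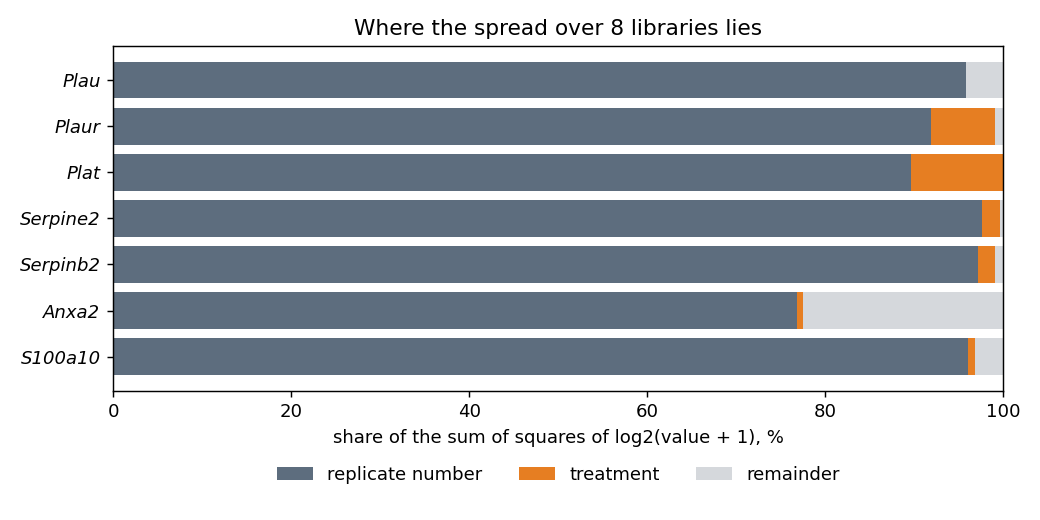
Share of the sum of squares of log2(value + 1) over 8 libraries held by replicate number, by treatment and by the remainder, for each of the 7 genes. Treatment takes 10.3% for Plat and 7.23% for Plaur, and at most 2.02% for the other 5.

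Genes whose log2 values went with a member over the 8 libraries were ranked by Pearson's r, which in these libraries follows replicate number for the most part. For Plat the 3 closest were Sema3f, Slpi and Kank1, each at r = 0.998, and Slpi, a secreted inhibitor of serine proteases, rose by 0.76 (adjusted p = 3.28e-05). Serpine2 was nearest to Arsa, Fbh1 and Stk25 (r = 0.998 to 0.999), and Plaur to Trappc10, Nav3 and Dicer1 (0.992 to 0.993). Plau went with Iqce, Rdh5 and Vps39 (0.993 to 0.995), and Serpinb2 with Ssb, Sephs2 and Adk (0.996 to 0.997). Anxa2 went with Cep55, Ids and Mki67 (0.967 to 0.970), and S100a10 with Tmtc3 and Psme4 (0.993 and 0.992). Among the members, Plat and Serpine2 had r = 0.965, and Plat and Plaur -0.983.

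Genes that act around the system were read from lists written by name. The genes reported here numbered 108, of which 73 were measured, 19 rose and 2 fell. Their median log2 change was 0.11, against 0.02 over all genes and 0.00 over genes with a mean above the table's median. Over all genes tested, 5.99% were called higher and 2.65% lower. Of the 10094 genes with a mean above the median, 992 were called higher and 522 lower. Among the calls over all genes 69.3% were higher, and 54.9% with median-of-ratios scaling. Of the 21 calls, 10 were kept in every alternative with the block: Ctsb, Igf2r, Itgb3, Itgb5, Fn1, Lama3, Thbs1, Mmp3, Anxa6 and Serpinb6b.

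Of the other inhibitors, Serpini1, neuroserpin, stood at 25.3 ± 5.04 in vehicle and 36.3 ± 7.42 in acetate (adjusted p = 0.111), and Serping1 at 16.8 ± 9.45 and 23.0 ± 15.1 (adjusted p = 0.426).

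Among 5 other plasminogen-binding proteins, Plgrkt, a plasminogen receptor, rose from 423 ± 111 to 497 ± 130 units (log2 change 0.23 ± 0.05, adjusted p = 0.0127), a call lost without replicate 2, 3 or 4 and in DESeq2. Enolase (Eno1) had 28749 ± 1828 and 30266 ± 1904 units (adjusted p = 0.0981). The list's median was -0.01. Plg, the gene of plasminogen itself, was on this list but not among the genes measured. Of 3 measured genes whose products activate pro-urokinase, Ctsb, a lysosomal protease, rose by 0.18 ± 0.02 (adjusted p = 0.00180). St14, matriptase, was at 0.05 ± 0.03 (adjusted p = 0.277).

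Of 8 endocytic receptors that clear activator and inhibitor complexes or urokinase receptor, 3 rose and none fell, with a median of 0.15. These were Igf2r (0.19 ± 0.03, adjusted p = 0.00129), Sorl1 (0.20 ± 0.04, 0.0119) and Lrp1 (0.11 ± 0.03, 0.0346). Lrp8 stood at -0.04 ± 0.04 (adjusted p = 0.661) and Vldlr at -0.15 ± 0.06 (0.178). Without replicate 2, 3 or 4 only Igf2r was called, and Lrp1 was not called with median-of-ratios scaling, in DESeq2 or in edgeR on 7 libraries. In edgeR with the block, and in limma without replicate 1, 3 of these receptors were called higher and 1 lower. Of 7 measured partners of the urokinase receptor, 3 integrin subunits rose: Itgb3 (0.56 ± 0.05, adjusted p = 1.71e-04), Itgb5 (0.29 ± 0.04, 0.00148) and Itga5 (0.20 ± 0.04, 0.00806). The median was 0.20. Itga5 did not pass without replicate 2, 3 or 4. Itga3 and Itgb1, the most abundant, were at -0.08 and 0.02 and did not pass.

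Of 16 measured genes whose products plasmin cuts or activates, 5 rose and 1 fell, with a median of 0.09. Mmp3 (stromelysin-1) rose by 0.54 ± 0.03 (adjusted p = 8.19e-06), the thrombospondin gene Thbs1 by 0.58 ± 0.06 (2.48e-04), Mmp13 by 0.65 ± 0.17 (0.0339), Mmp10 by 0.37 ± 0.09 (0.0210) and fibronectin (Fn1) by 0.28 ± 0.03 (3.38e-04). Fn1 had 63442 ± 20684 units in vehicle and 77645 ± 26781 in acetate. Lama3, a laminin chain, fell by 0.24 (SE 0.04, adjusted p = 0.00245) in 4 of 4 pairs. Without replicate 2, 3 or 4, Mmp10 and Mmp13 did not pass, and Mmp13 did not in DESeq2 or with a pseudocount of 0.1. Lama5 stood at 0.07 ± 0.03 (adjusted p = 0.0973) and Mmp9 at -0.09 ± 0.05 (0.273).

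**Figure D4:**
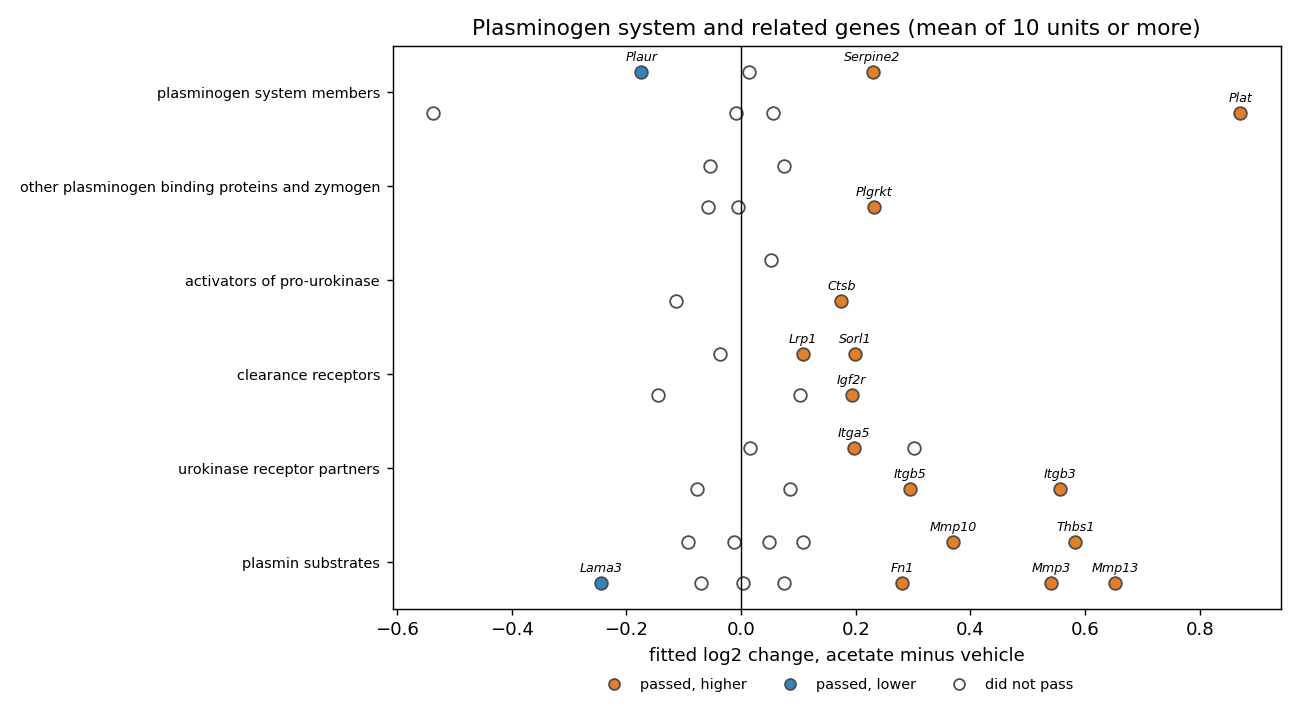
Fitted log2 change, acetate minus vehicle, of the 7 genes and of 5 related lists, for genes with a mean of 10 units or more. Filled points passed the test (orange higher, blue lower) and open points did not. Plat lies farthest to the right at 0.87.

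Relatives of the members were read in the same way. Of 9 measured annexins other than Anxa2, Anxa6 rose by 0.53 ± 0.04 (adjusted p = 4.25e-05) and Anxa11 by 0.12 ± 0.03 (0.0497), with a median of 0.06. Anxa11 did not pass without replicate 2, 3 or 4, with median-of-ratios scaling or a pseudocount of 0.1, in DESeq2 or in edgeR on 7 libraries. Anxa3 stood at -0.10 ± 0.03 (adjusted p = 0.0895) and Anxa8 at -0.34 ± 0.11 (0.0957), and each was called lower in some alternatives with the block, Anxa3 in DESeq2, edgeR and with median-of-ratios scaling among others, Anxa8 in edgeR and with quantile scaling. Their values were singled out after they were seen. Anxa1 and Anxa5, both abundant, were at 0.09 (adjusted p = 0.0512) and 0.06 (0.305). Of 10 S100 genes other than S100a10, S100a4 rose by 0.39 ± 0.10 (0.0278), S100a13 by 0.28 ± 0.07 (0.0396) and S100a11 by 0.14 ± 0.03 (0.0241), while S100a6 fell by 0.13 (SE 0.03, 0.0141). Without replicate 2, 3 or 4, none of these 4 S100 genes passed. S100a13 also failed without replicate 1, in DESeq2, in edgeR on 7 libraries, with a pseudocount of 5 and with median-of-ratios or quantile scaling. S100a4 also failed in DESeq2 and with quantile scaling, and S100a11 in edgeR on 7 libraries. Of 7 clade B serpins other than Serpinb2, 1 rose: Serpinb6b, from 169 ± 7.25 to 266 ± 26.2 units (0.64 ± 0.08, adjusted p = 7.42e-04). Serpinb6a, the most abundant, was at 0.03 ± 0.03 (adjusted p = 0.543). Of 4 measured relatives of the urokinase receptor none passed, and Lypd3 was at 0.17 ± 0.05 (adjusted p = 0.0720).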

How the data were processed

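RNA was measured in 8 libraries. Deposited was a normalised signal per gene, which the authors scaled so that each library sums to 20000000. The submitters' processing notes name STAR, HTSeq and build GRCm38. Dividing by the worth of 1 read gave whole reads (tolerance 0.1 read) for 100% of the values, 19.9 to 29.3 M per library. In vehicle replicate 3, 1 read was worth 1.0053 units, too near 1 to test, so count fits (edgeR 4.0.16, DESeq2 1.42.0) were alternatives. The table holds genes above 0 in at least 4 libraries.

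Acetate was compared with vehicle by a two-sided limma 3.58.1 test (R 4.3.3, moderated with a mean-variance trend) of log2(value + 1), without a filter, over 20189 genes with Benjamini-Hochberg adjustment at 0.05. The replicate number was a block. Same-numbered libraries share a code in their labels, and over genes with a mean above 1 unit their deviations from the group means correlated at 0.81, 0.27, 0.20 and 0.69 for replicates 1 to 4. Among replicates 2 to 4, libraries of different numbers correlated at 0.0769 to 0.237, below each library's correlation with its own number but close to it in replicates 2 and 3. The pseudocount understates changes of low genes. With the block, p-values rest on how much the differences within pairs vary, moderated over genes. They do not measure the spread between replicates. The scripts were tested on simulated data.

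The members and lists were chosen with earlier results of these data known. Named were all members, list genes past the threshold with a mean of at least 10 units (at most 6 a list), up to 2 further genes by mean, and the 3 genes most like each member. Lengths and coordinates are from GENCODE M21, counted from 1, and windows from RefSeq. Transcripts were compared by blastn 2.17.0 (identity of at least 90% over 100 bases). Alternatives changed the pseudocount (0.1, 5), a filter (mean of 10 units), scaling (median of ratios, quantile), block, tool and pairs. A comparison of member proteins was not run here. A gene of the inhibitor list and a gene like S100a10 are not reported here, and counts over the lists leave the first out.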

Additional observations from a re-analysis of the deposited data

Results flagged for a closer look

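In groups of 4 libraries, a library whose gap to the nearest other took up an unusual share of the group's range was sought for 28 genes and 5 ratios. Of 66 groups, 14 met this, where chance gives about 3.3, and 13 of the 14 were in replicate 1. The gap's share of the range is given for each. Plau was low in acetate replicate 1 (0.917). Plaur was high in vehicle (0.873) and acetate (0.907) replicate 1, Serpinb2 in vehicle (0.909) and acetate (0.948), and S100a10 in vehicle (0.902) and acetate (0.972). Serpine2 was low in vehicle replicate 1 (0.847), and Lama3 was high there (0.918). Serpinb6b was low in vehicle replicate 4 (0.860). The Plau to Plaur ratio was low in acetate replicate 1 (0.865), Plau to Serpine2 was high there (0.894), and S100a10 to Anxa2 was high in replicate 1 in vehicle (0.881) and acetate (0.881). The cause of these gaps was not tested.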

How the results depend on the processing

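The replicate block mattered most: without it limma called 0 genes, 0 members and 0 genes of each list, and so did edgeR without it. Fitted values without the block, in limma and edgeR, were -0.17 and -0.21 for Plaur, 0.87 and 0.85 for Plat, and 0.23 and 0.20 for Serpine2, none past the threshold. With the block, edgeR called 2400 genes (1350 on 7 libraries) and DESeq2 1126, and the 7 members gave 3 or 4 calls in every blocked alternative that kept all pairs. Leaving out a pair gave 409 to 1662 genes (617 without replicate 2, 409 without 3, 539 without 4) and 1 to 4 members, 1 without replicate 2. The members' ranges over left-out pairs were -0.069 to 0.019 for Plau, -0.20 to -0.14 for Plaur, 0.20 to 0.29 for Serpine2, 0.014 to 0.12 for S100a10 and -0.019 to 0.055 for Anxa2. Anxa2 turned sign to -0.0056 in DESeq2, -0.0057 with median-of-ratios scaling, -0.0042 in edgeR, -0.0051 in edgeR without the block and -0.016 in edgeR on 7 libraries. Serpinb2 passed in edgeR (-0.49). Calls over left-out pairs were 0 to 1 for the binding proteins, 1 to 4 for clearance receptors, 1 to 3 for annexins, 0 to 3 for S100 genes and 0 to 1 for urokinase receptor relatives. Annexins had 4 calls in edgeR (2 higher, 2 lower) and with the low-value filter (3 and 1), 2 in DESeq2 and with median-of-ratios scaling (1 and 1 in each), and 1 with a pseudocount of 0.1. S100 genes had 2 in DESeq2, in edgeR on 7 libraries and with quantile scaling, the binding proteins 0 in DESeq2, and the receptor relatives 1 with the filter. edgeR on 7 libraries and edgeR without the block were chosen after seeing the data. Serpinb2 rests on as few as 6 reads. The cause of these moves was not tested.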
